A study of Mus musculus with 6 samples.

Results

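The genes described here are the Rasgrf, Rasgrp and Rasgef1 guanine nucleotide exchange factors of mouse, taken as every array row whose platform annotation names 1 gene and that gene is Rasgrf1, Rasgrf2, Rasgrp1 to Rasgrp4, Rasgef1a, Rasgef1b or Rasgef1c. All 9 had 1 such row, among 19938 genes with a row naming 1 gene. They were measured in whole brain, from olfactory bulb to brain stem, of mouse embryos at embryonic day 16.5. One group held 3 embryos of genotype Tdp2Δ1-3, and the other held 3 wild-type embryos, with 1 Affymetrix Mouse Gene 1.0 ST array per brain. The series title calls the mutants knock-outs, and Tdp2 encodes the phosphodiesterase that frees DNA ends from trapped topoisomerase II. Neither group was treated, and the labels used here give no strain, sex or litter. The comparison addresses what loss of Tdp2 does to the transcripts of the embryonic brain.

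Ras and Rap proteins are small GTPases that signal while bound to GTP, and exchange factors switch them on by releasing GDP. The RasGRF proteins respond to calcium through calmodulin and are best known at the glutamate synapses of neurons. Most RasGRP proteins are recruited by diacylglycerol, the lipid that phospholipase C makes, and several bind calcium. The RasGEF1 proteins share the catalytic domain with both families but have few other recognised parts.

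Transcripts of 6 of the 9 genes were lower in Tdp2 mutant brains than in wild-type brains. Rasgrf2, Rasgrp2 and Rasgef1a were lower by 1.64-fold, 1.56-fold and 1.53-fold, and Rasgrp1, Rasgrf1 and Rasgef1c by 1.32-fold, 1.27-fold and 1.23-fold. Rasgrp3, Rasgrp4 and Rasgef1b did not pass the test. Calls were read from a limma fit over 23410 rows at a Benjamini-Hochberg adjusted p under 0.05, which called 4.13% of rows lower in the mutant, 2.34% higher and 6.47% in either direction. With a 1.5-fold limit added, the rule in the series text, 3 of the 9 genes were called lower, and 0.453% of all rows were. The genotypes did not overlap in the 6 called genes, all lower in the mutants, and 12.6% of all rows were separated in that direction. These genes were chosen by family name with their differences between mutant and wild type in these arrays known, so the counts and adjusted p values place each row within the whole table and are no independent test. In whole brain, fewer cells that carry a transcript and less of it per cell cannot be told apart.

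Values below are the authors' log2 values, in which each row is centred on its median over the 6 arrays. A value of 0 is therefore that gene's own middle, and a level cannot be compared between genes or checked against a detection limit. No filter on low values could be set, and whether any of the 9 is expressed mainly in neurons could not be read from these arrays. For the same reason the brain's defining markers could be checked only for differences, not for presence. Array medians lay between -0.011 and 0.014, and 0.0726% of rows at most held equal values in any pair of arrays. The median difference over all rows tested was 0.013, and 43.2% of rows had a negative difference. Tdp2 itself stood at -1.05, -0.90 and -0.94 in the mutant brains, against 0.90, 1.10 and 1.34 in the wild-type brains. The difference was -2.07 ± 0.10 (SE, n = 3 per genotype, limma adjusted p = 0.00035), and the row may hold probes outside the deletion.

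**Figure D1:**
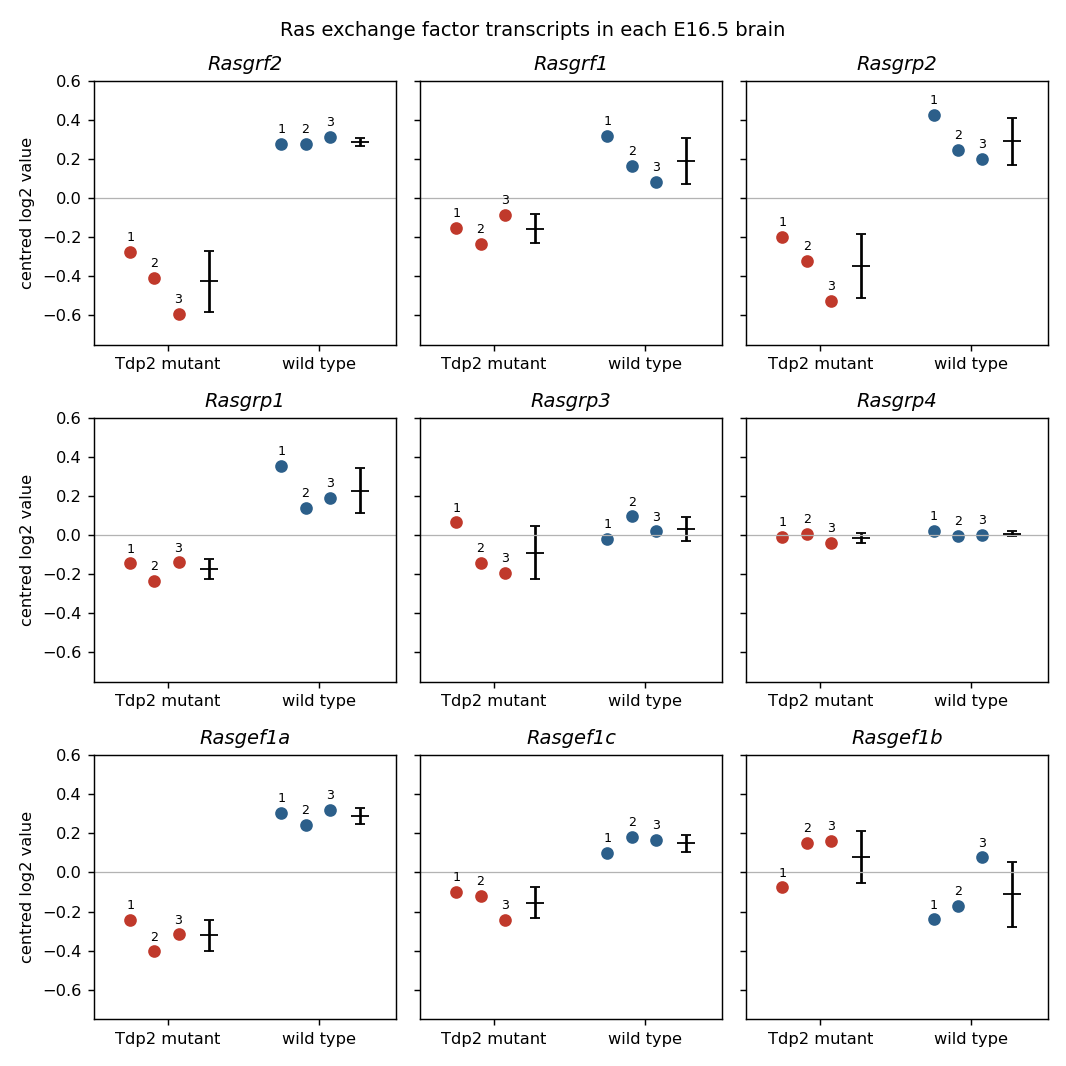
Centred log2 value of each gene in each brain, with replicate numbers beside the points and the mean ± SD (n = 3) to the right of each group. In the panels of Rasgrf2, Rasgrf1, Rasgrp2, Rasgrp1, Rasgef1a and Rasgef1c every Tdp2 mutant point lies below every wild-type point, and in the panels of Rasgrp3, Rasgrp4 and Rasgef1b the groups overlap.

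The stretches just upstream of the genes are shown first for the 4 members that have a single start window in RefSeq (build GRCm38.p6), among them the 3 called genes Rasgrf1, Rasgrf2 and Rasgrp1 and, for contrast, Rasgef1b, which was not called. Each is the 250 bases before the annotated start, 5′ to 3′ on the gene's strand, and capitals mark matches on either strand to the GC box GGGCGG, the box named for its letters CCAAT, the cyclic AMP response element core TGACG or the E-box CACGTG.
Rasgrf1 (chr9:89909525-89909774, plus strand): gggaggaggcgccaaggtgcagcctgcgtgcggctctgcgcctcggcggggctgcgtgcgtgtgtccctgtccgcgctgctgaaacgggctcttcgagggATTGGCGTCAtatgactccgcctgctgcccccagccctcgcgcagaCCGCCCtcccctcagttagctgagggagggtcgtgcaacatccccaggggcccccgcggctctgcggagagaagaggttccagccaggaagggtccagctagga
Rasgrf2 (chr13:92131829-92132078, minus strand): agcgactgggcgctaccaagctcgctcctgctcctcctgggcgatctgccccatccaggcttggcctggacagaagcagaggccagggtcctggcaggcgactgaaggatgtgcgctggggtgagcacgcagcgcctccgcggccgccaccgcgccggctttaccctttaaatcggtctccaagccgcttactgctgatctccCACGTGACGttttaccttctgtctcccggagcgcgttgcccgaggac
Rasgrp1 (chr2:117342878-117343127, minus strand): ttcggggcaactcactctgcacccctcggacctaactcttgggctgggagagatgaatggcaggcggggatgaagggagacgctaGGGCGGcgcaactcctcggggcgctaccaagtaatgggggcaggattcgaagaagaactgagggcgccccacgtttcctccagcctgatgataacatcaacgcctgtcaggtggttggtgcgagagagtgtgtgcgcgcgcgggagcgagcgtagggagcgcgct
Rasgef1b (chr5:99252928-99253177, minus strand): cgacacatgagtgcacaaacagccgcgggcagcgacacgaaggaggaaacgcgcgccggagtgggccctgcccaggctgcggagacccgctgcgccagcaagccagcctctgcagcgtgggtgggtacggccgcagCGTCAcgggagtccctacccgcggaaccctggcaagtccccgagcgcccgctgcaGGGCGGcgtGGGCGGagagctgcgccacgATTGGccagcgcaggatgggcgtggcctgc
In Rasgrf2 the E-box and the response element core overlap by the letters TG.

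RefSeq start windows were found for 8 of the 9 genes, 12 windows in all, and none was used for Rasgrp4. The GC box was in 9 of the 12 windows and in 32.7% of all 32851 windows of the same length. It was absent only from the Rasgrf2 window and both Rasgrp3 windows. The response element core was in 3 of 12 windows, those of Rasgrf1, Rasgrf2 and Rasgef1b, and in 17.8% of all windows, so it was seen in called and uncalled genes. CCAAT was in 3 of 12 windows against 33.8% of all, and CACGTG in 1 of 12 against 6.02%. Further motifs searched on both strands were CAGCTG, an E-box, in 1 of 12 and in 13.0% of all windows, the AP-1 site TGACTCA, in 0 of 12 and 4.46%, and TATAAA, the TATA box, in 1 of 12 and 12.4%. GC content was 47.6% and 52.8% in the Rasgrp3 windows and 62.4% to 82.4% in the windows of the other 7 genes, against a median of 52.4% over all windows. The ratio of observed to expected CpG was 0.30 and 0.46 in the Rasgrp3 windows, and ran from 0.51 to 1.20 in the others, against a median of 0.37 over all windows. These matches describe letters in a window, and no binding was measured.

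Both RasGRF genes were lower in the mutants. Rasgrf2 encodes a calmodulin-binding exchange factor that acts on Ras and, through a second exchange domain, on Rac. Its values were -0.28, -0.41 and -0.59 in the mutant brains, against 0.28, 0.28 and 0.31 in the wild-type brains. The wild-type values lay within a narrow band, while the mutants were spread out, with replicate 3 lowest. The difference was -0.72 ± 0.076 (SE, n = 3 per genotype, 95% interval -0.89 to -0.54, limma adjusted p = 0.00502). It passed with any 1 array left out, where it ran from -0.79 to -0.63. Rasgrf2 lies on chromosome 13, as Tdp2 does, with 446 protein-coding genes between them, and the nearest genes beside it, Ckmt2 and Msh3, had differences of 0.0072 and 0.14 that did not pass.

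Rasgrf1, the paralog of Rasgrf2, is imprinted in mouse and read mainly from the paternal copy in the newborn brain. Its values were -0.15, -0.23 and -0.085 in the mutants, against 0.32, 0.16 and 0.085 in the wild types. The groups were separate, with wild-type replicate 1 standing highest. The difference was -0.35 ± 0.069 (SE, n = 3 per genotype, 95% interval -0.51 to -0.19, limma adjusted p = 0.0276). The call was lost without mutant replicate 2 (limma adjusted p = 0.125), mutant replicate 3 (0.0541) or either of wild-type replicates 1 and 2 (0.0556 and 0.0948). Within each array Rasgrf2 minus Rasgrf1 averaged -0.27 ± 0.21 in the mutants and 0.10 ± 0.13 in the wild types (SD, n = 3 each). The gap between these means, -0.37, describes a larger difference of Rasgrf2 in these arrays and was not tested.

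The RasGRP family was divided, with 2 of its 4 genes called. Rasgrp2 encodes the factor also called CalDAG-GEFI, which acts chiefly on Rap1 and is known from platelets and the striatum. Its values were -0.20, -0.32 and -0.52 in the mutants, against 0.43, 0.25 and 0.20 in the wild types. Mutant replicate 3 was lowest and wild-type replicate 1 highest, and the groups did not overlap. The difference was -0.64 ± 0.092 (SE, n = 3 per genotype, 95% interval -0.85 to -0.43, limma adjusted p = 0.0107). Without mutant replicate 2 the difference was -0.65 and the call was lost (limma adjusted p = 0.0602).

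Rasgrp1, which couples diacylglycerol to Ras and is best known from T-cell receptor signalling, had values of -0.14, -0.23 and -0.14 in the mutants and 0.36, 0.14 and 0.19 in the wild types. Mutant replicate 2 was lowest here. The difference was -0.40 ± 0.064 (SE, n = 3 per genotype, 95% interval -0.55 to -0.25, limma adjusted p = 0.0137), and the call was lost without mutant replicate 2 (limma adjusted p = 0.0774).

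Rasgrp3, which acts on both Ras and Rap1 and is known from B cells and endothelium, had values of 0.066, -0.14 and -0.19 in the mutants, against -0.020, 0.097 and 0.020 in the wild types. Mutant replicate 1 lay among the wild types and the other two mutants below them. The difference was -0.12 ± 0.072 (SE, n = 3 per genotype, 95% interval -0.29 to 0.046, limma adjusted p = 0.395), and with array weights it was -0.20 and was called (limma adjusted p = 0.0295). Rasgrp4, known from mast cells, had values of -0.0073, 0.0092 and -0.039 in the mutants, against 0.022, -0.0036 and 0.0036 in the wild types. All 6 lay close together, and the difference was -0.020 ± 0.040 (SE, n = 3 per genotype, 95% interval -0.11 to 0.073, limma adjusted p = 0.844). That interval leaves out a difference of the size seen in Rasgrp1, and where the row stands against the array's background is not known here. Within each array Rasgrp2 minus Rasgrp3 averaged -0.26 ± 0.075 in the mutants and 0.26 ± 0.16 in the wild types (SD, n = 3 each), a gap of -0.52 that was not tested.

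The RasGEF1 family held the member of smallest p and the single positive difference. Rasgef1a had values of -0.24, -0.40 and -0.32 in the mutants, against 0.31, 0.24 and 0.32 in the wild types. Both groups were compact and well apart. The difference was -0.61 ± 0.053 (SE, n = 3 per genotype, 95% interval -0.73 to -0.49, limma adjusted p = 0.00354), and it passed with any 1 array left out, where it ran from -0.65 to -0.57.

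Rasgef1c had values of -0.10, -0.12 and -0.24 in the mutants, against 0.10, 0.18 and 0.16 in the wild types. The groups were separate, with mutant replicate 3 lowest. The difference was -0.30 ± 0.053 (SE, n = 3 per genotype, 95% interval -0.43 to -0.18, limma adjusted p = 0.0179). The call was lost without mutant replicate 2 (limma adjusted p = 0.0728), mutant replicate 3 (0.0523) or wild-type replicate 2 (0.0848). Rasgef1b, whose transcript is induced by Toll-like receptor signalling in macrophages, had values of -0.077, 0.15 and 0.16 in the mutants, against -0.24, -0.17 and 0.077 in the wild types. Mutant replicate 1 and wild-type replicate 3 crossed over, and the other arrays were apart. The difference was 0.19 ± 0.096 (SE, n = 3 per genotype, 95% interval -0.031 to 0.41, limma adjusted p = 0.308), and with array weights it was 0.26 and was called (limma adjusted p = 0.0272). Within each array Rasgef1a minus Rasgef1b averaged -0.40 ± 0.21 in the mutants and 0.40 ± 0.15 in the wild types (SD, n = 3 each). The gap of -0.80 restates the differences of Rasgef1a and Rasgef1b given above, and was not tested. It was the widest of the 5 pairs of family members compared this way, which were not all possible pairs. This pair holds the single positive difference.

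**Figure D2:**
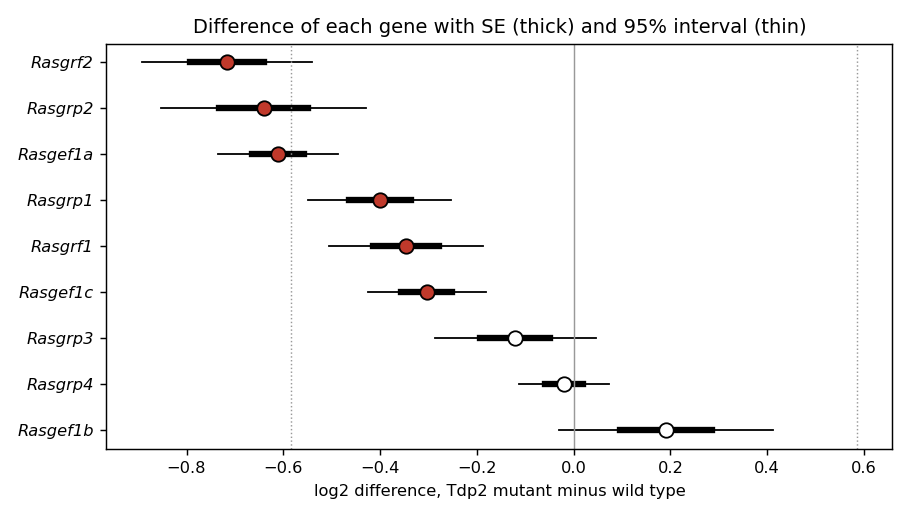
Log2 difference, Tdp2 mutant minus wild type, of each gene, with the SE as a thick bar and the 95% interval as a thin one. Filled points passed a limma adjusted p under 0.05, and the dotted lines mark 1.5-fold. The 6 filled points run from -0.72 for Rasgrf2 to -0.30 for Rasgef1c, and the intervals of Rasgrp3, Rasgrp4 and Rasgef1b include 0.

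The order of the differences was Rasgrf2, Rasgrp2, Rasgef1a, Rasgrp1, Rasgrf1, Rasgef1c, Rasgrp3, Rasgrp4 and Rasgef1b. Neighbours in that order had intervals that overlapped. The 3 most negative belonged to different families, and the RasGRP and RasGEF1 families each held a member that was not called. The largest separations between the groups, from the highest mutant to the lowest wild-type value, were 0.55 for Rasgrf2, 0.49 for Rasgef1a and 0.40 for Rasgrp2, and the smallest of the 6 called genes was 0.17 for Rasgrf1. Of the 6, mutant replicate 3 was lowest for Rasgrf2, Rasgrp2 and Rasgef1c, and mutant replicate 2 for Rasgrf1, Rasgrp1 and Rasgef1a. When 1 array was left out, 6 of the 9 genes were called if it was mutant replicate 1 or wild-type replicate 3, and 5 if it was wild-type replicate 1. Leaving out mutant replicate 3 or wild-type replicate 2 gave 4 called genes, and leaving out mutant replicate 2 gave 2, Rasgrf2 and Rasgef1a. Over the same fits the whole table held between 145 and 2501 called rows.

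**Figure D3:**
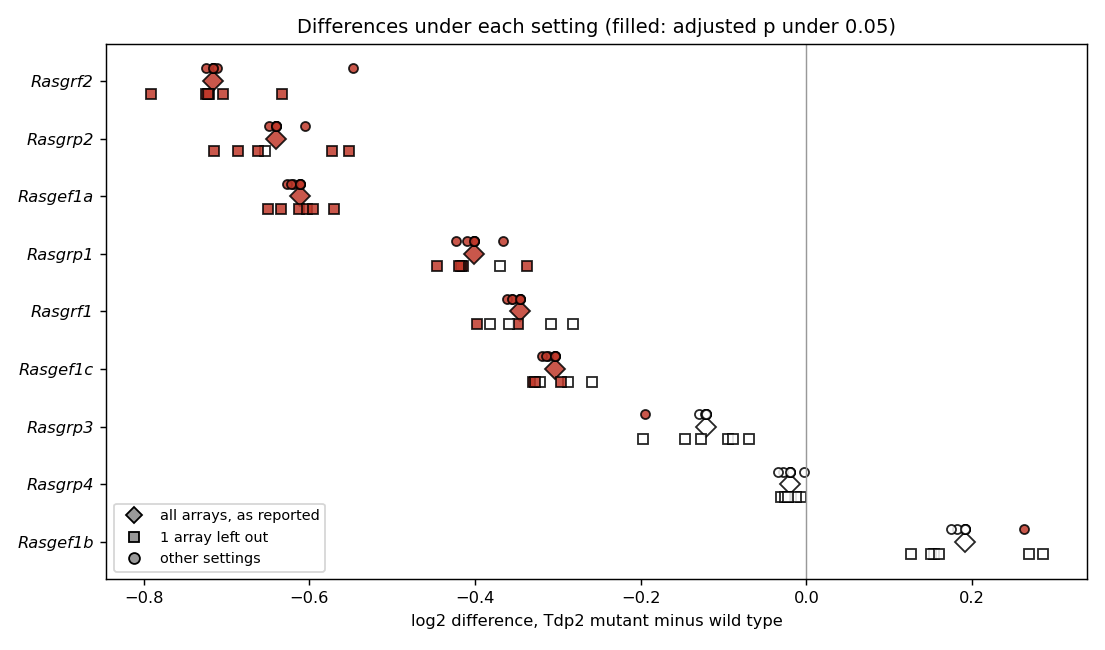
Log2 difference of each gene, Tdp2 mutant minus wild type, with all arrays (diamond), with 1 array left out (squares) and under the other settings (circles). Filled symbols passed a limma adjusted p under 0.05. The symbols of Rasgrf2 and Rasgef1a are all filled, and none of Rasgrp4 is.

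Genes whose values ran most like those of each called member were taken by Pearson's correlation over the 6 arrays among 21789 rows naming 1 gene. The correlations describe a pattern set mostly by the gap between genotypes, so many rows score high. Nearest to Rasgrf2 were Lrrc3b (r = 0.9995), Mpv17l (0.9986) and Slc1a1 (0.9984), the last a neuronal glutamate transporter, and 616 rows exceeded 0.95. Nearest to Rasgef1a were the contactin gene Cntn6 (r = 0.9995), Camkv (0.9971) and the postsynaptic scaffold gene Dlgap1 (0.9971), with 309 rows above 0.95. For Rasgrp2 they were Slc9a5 (r = 0.9988), Car11 (0.9987) and the cation channel gene Trpc5 (0.9987), with 762 rows above 0.95. For Rasgef1c they were Mtss1 (r = 0.9991), the protein kinase C gene Prkca (0.9978) and Camta1 (0.9963). For Rasgrf1 they were Ttll9 (r = 0.9955), the gastrin-releasing peptide receptor gene Grpr (0.9954) and Slitrk1 (0.9873), and for Rasgrp1 they were Slc2a6 (r = 0.9950), Tmem150c (0.9927) and Eogt (0.9923). Only 87 rows exceeded 0.95 for Rasgrf1, 169 for Rasgrp1 and 412 for Rasgef1c.

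Upstream of the RasGRF proteins, NMDA-type glutamate receptors admit the calcium that calmodulin senses. Of 7 genes measured for calmodulin and NMDA receptor subunits, 4 fell and 3 did not pass, with a median difference of -0.26. Beside this and each later list, 4.13% of all rows were called lower and 2.34% higher. Grin3a stood at -0.25, -0.53 and -0.67 in the mutants, against 0.25, 0.25 and 0.25 in the wild types, and fell by 0.74 ± 0.097 (SE, limma adjusted p = 0.00874). Grin2b, a subunit that RasGRF1 is known to bind, stood at -0.30, -0.14 and -0.17 in the mutants, against 0.21, 0.26 and 0.14 in the wild types, and fell by 0.41 ± 0.059 (SE, limma adjusted p = 0.0112). Grin2d fell by 0.64 and Grin2a by 0.26 (limma adjusted p = 0.0154 and 0.0476). All 4 called receptor genes were apart between genotypes, lower in the mutants, as were 12.6% of all rows. They were picked as called, so this separation adds nothing to their calls. After cyclic loess Grin3a was at -0.33 and still called, and Grin2a lost its call when all rows of the table were tested (limma adjusted p = 0.0638). Grin2c and the calmodulin genes Calm2 and Calm3 had differences of -0.087, -0.13 and -0.20 that did not pass. With mutant replicate 2 left out the count of 4 became 0, with wild-type replicate 2 left out it became 1, and it was 3 with mutant replicate 3 or wild-type replicate 1 left out.

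Upstream of those RasGRP proteins that diacylglycerol recruits, phospholipases C make this lipid and diacylglycerol kinases remove it. Of 8 diacylglycerol kinase genes, Dgkk fell by 0.91 ± 0.11 (SE, limma adjusted p = 0.00715) and 7 did not pass. All 8 had negative differences, with a median of -0.13, and 2 were called without mutant replicate 1 or without wild-type replicate 3. Of 11 phospholipase C genes none passed in limma, 2 had an unadjusted p under 0.05, and the median was -0.093. The bifunctional gene Plce1 was left out of this list and counted with the other exchange factors below, where it was called higher (limma adjusted p = 0.0433). Plch1 and Plcd3 were nearest to passing, at 0.30 and -0.20 (limma adjusted p = 0.0776 and 0.134), and 1 phospholipase gene was called higher when mutant replicate 1 was left out.

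Growth factor receptors switch Ras on through another exchange factor, Sos. Of 21 receptor and adaptor genes, 5 fell, 1 rose and 15 did not pass, with a median of -0.14. The epidermal growth factor receptor gene Egfr fell by 0.56 ± 0.055 and the hepatocyte growth factor receptor gene Met by 0.54 ± 0.054 (SE, limma adjusted p = 0.00453 for both). Pdgfra fell by 0.58, the BDNF receptor gene Ntrk2 by 0.49 and the adaptor gene Shc3 by 0.31, and Fgfr3 rose by 0.26 (limma adjusted p = 0.0377). Egfr and Met passed with any 1 array left out, and the count of falls was 2 without mutant replicate 2 and 3 without wild-type replicate 2. Among the fits with 1 array left out, Fgfr3 was called only without wild-type replicate 1, and it lost its call when all rows were tested (limma adjusted p = 0.0510). Among 15 other exchange factors for Ras, Rap and Ral, which include Sos1 and Sos2, 3 fell, 1 rose and 11 did not pass (median -0.096). Those that fell were Kndc1 by 0.44, Rapgefl1 by 0.35 and Rapgef2, a Rap exchange factor, by 0.28, and the bifunctional phospholipase gene Plce1 rose by 0.22. None of these 4 was called without mutant replicate 2 or 3 or wild-type replicate 2. Without wild-type replicate 1 only 1 was called lower, Rapgefl1 (limma adjusted p = 0.0307), and Plce1 lost its call with any array left out. Without wild-type replicate 3, Rapgefl1 and Kndc1 were called. With all rows tested Rapgef2 and Plce1 lost their calls (limma adjusted p = 0.0611 and 0.0562), and Plce1 did with array medians set equal (0.0502).

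The GTPases themselves and the enzymes that switch them off showed no call. None of 4 Ras GTPase genes passed in limma (1 at an unadjusted p under 0.05, median -0.073), and none of 7 Rap and Ral genes did (1 unadjusted, median -0.052). Rras2 and Nras, at -0.16 and 0.12, were nearest to passing among the Ras genes. None of 15 GTPase-activating protein genes passed (3 unadjusted, median -0.068), with Rap1gap at -0.40 (limma adjusted p = 0.0811) nearest. Downstream, none of 8 Raf, MEK and ERK pathway genes passed (5 unadjusted, median -0.11), with the scaffold gene Ksr2 at -0.15 and Map2k1 at -0.16. Of 15 feedback and transcriptional targets of ERK, Spred2, an inhibitor of Ras signalling, fell by 0.24 ± 0.055 (SE, limma adjusted p = 0.0403), and 14 did not pass (median -0.13). Etv1 was nearest at -0.21 (limma adjusted p = 0.0520), and Spred2 lost its call in 5 of the 6 fits with 1 array left out, all but that without mutant replicate 1, and when all rows of the table were tested (limma adjusted p = 0.0536). Leaving out mutant replicate 1 gave 2 calls each among the GTPase-activating proteins and the ERK targets, all lower, and with array weights these 5 lists held between 1 and 6 calls each. Over all 10 lists, 111 genes were measured, of which 14 fell and 2 rose, beside a background of 6.47% of rows called.

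**Figure D4:**
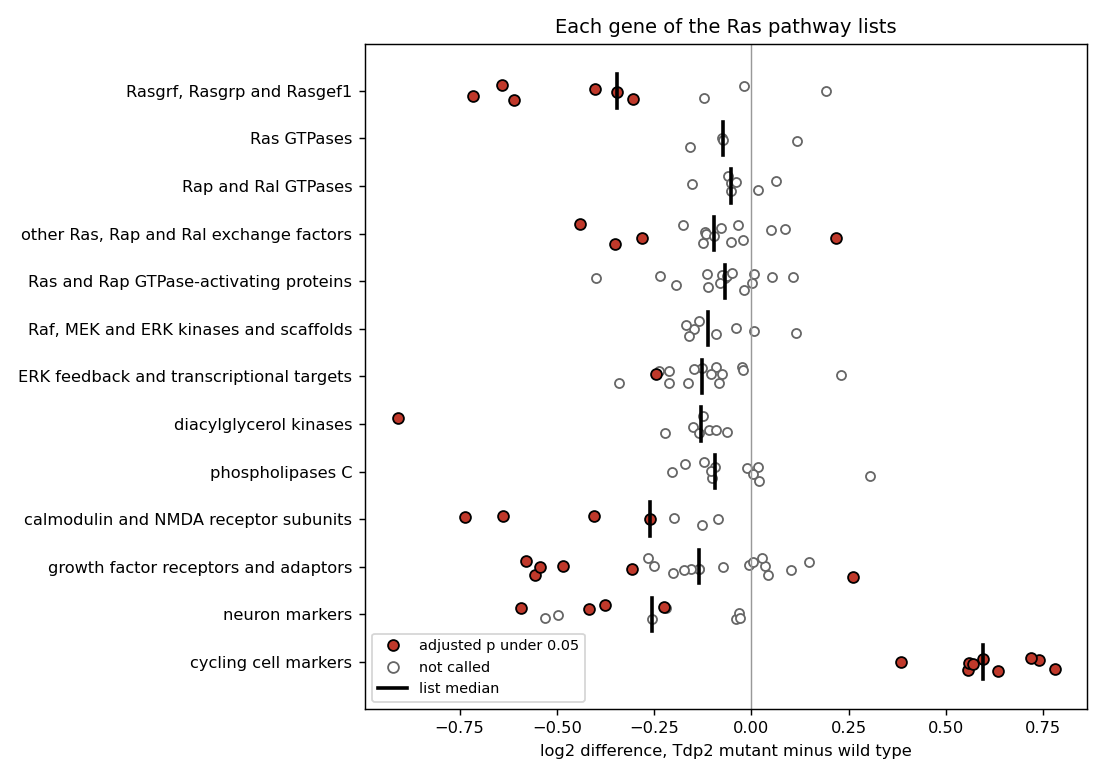
Log2 difference, Tdp2 mutant minus wild type, of every measured gene in each Ras pathway list, and in the neuron and cycling cell marker lists. Filled points passed a limma adjusted p under 0.05, and black bars are list medians. The exchange factors have a median of -0.35, NMDA receptor and calmodulin genes of -0.26, and the Ras GTPases, with no filled point, of -0.073.

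Markers of neurons and of dividing cells also differed between the genotypes, in opposite directions. Over all rows 4.13% were called lower and 2.34% higher. Of 11 neuron markers, 4 fell, namely Syn1, Snap25, Syt1 and Gap43, by 0.59, 0.42, 0.38 and 0.22, and 7 did not pass. After cyclic loess Syn1 was at -0.048 and not called (limma adjusted p = 0.604). With array medians set equal Syn1 was at -0.60 and called (limma adjusted p = 0.0392). Cyclic loess was run on centred values, so it cannot show whether Syn1 depends on scaling by signal level. With all rows of the table tested Syn1 and Snap25 lost their calls (limma adjusted p = 0.0583 and 0.0555). All 11 had negative differences (median -0.26), and the list's median value was -0.031, -0.19 and -0.34 in the mutants, against 0.15, 0.11 and 0.048 in the wild types. Of 9 cycling cell markers all rose (median 0.59), and their median value was 0.20, 0.39 and 0.41 in the mutants, against -0.46, -0.21 and -0.21 in the wild types. The count of neuron markers that fell was 0 if mutant replicate 2 or wild-type replicate 1 or 2 was left out, 1 or 2 if it was mutant replicate 3 or wild-type replicate 3, and 8 if it was mutant replicate 1. Of the cycling markers 2 rose without mutant replicate 2. The part of either shift in the exchange factor result was not tested.

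Markers of other cell types were read the same way, beside 4.13% of all rows called lower and 2.34% higher. Which cells carry the 9 genes could not be read from these arrays. Of 10 striatal markers, 4 fell (median -0.16), with Rxrg by 0.78, Tac1 by 0.39, Drd2 by 0.32 and Foxp1 by 0.27. The other 6 did not pass. Among them Isl1 and Ebf1 had positive differences of 0.18 and 0.11. Ppp1r1b, Drd1 and Bcl11b were at -0.049, -0.018 and -0.0015, and Penk was at -0.93. Penk stood at 0.014, -1.03 and -1.64 in the mutants, against 0.043, 0.12 and -0.014 in the wild types. Mutant replicate 1 thus lay among the wild types for Penk. Of 5 upper-layer cortical markers 1 fell, Rorb by 0.33. The striatal count was 1 when mutant replicate 2 was left out and 2 when mutant replicate 3 or any 1 wild type was, and Rorb was not called without mutant replicate 2 or wild-type replicate 2. Astrocyte markers held 3 falls among 8 (Slc4a4, Aqp4 and Gja1, median -0.27), the oligodendrocyte lineage 2 among 6 (Pdgfra and Olig1, median -0.20) and endothelium 2 among 9 (Slco1c1 by 0.55 and Cldn5 by 0.35, median -0.059). Olig1 was at -0.72 as deposited and at -0.057 after cyclic loess, where it was not called (limma adjusted p = 0.620), and Olig1 and Gja1 lost their calls with all rows tested (0.0598 and 0.0543). The astrocyte count was 0 without mutant replicate 2 or wild-type replicate 2, 1 without mutant replicate 3 or wild-type replicate 1, and 2 without wild-type replicate 3. The oligodendrocyte count was 0 without either replicate 2, and 1 without mutant replicate 3 or without wild-type replicate 1 or 3. The endothelial count was 1 without mutant replicate 2 or 3 or wild-type replicate 1 or 2. The blood cells in which the RasGRP proteins are best known showed no call in limma. Platelet and megakaryocyte markers (5 measured, 1 at an unadjusted p under 0.05, median 0.029), mast cell markers (7 measured, 0 unadjusted, median -0.00089) and T and B lymphocyte markers (7 measured, 0 unadjusted, median 0.015) did not pass. Without wild-type replicate 1, 1 platelet marker was called lower. None of 8 microglia and macrophage markers passed (2 unadjusted, median -0.013). Of 6 erythroid markers 2 rose, the embryonic globin genes Hbb-y and Hba-x, by 3.79 and 1.44. Whether shifts in these cell types contribute to the exchange factor values was not tested.

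The genes next to the 9 members on their chromosomes gave a further comparison, chosen after the values were seen. Of 18 nearest protein-coding genes with a row of their own, 1 fell, Nrxn2 beside Rasgrp2, by 0.40 (limma adjusted p = 0.0293). Fam98b beside Rasgrp1 rose by 0.30 and Ltbp1 beside Rasgrp3 by 0.25 (limma adjusted p = 0.0183 and 0.0254). The other 15 did not pass, and the median over the 18 was -0.038. Over all rows 4.13% were called lower and 2.34% higher. Nearest neighbours of Rasgrf1, Rasgrf2, Rasgef1a and Rasgef1c were not called.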

How the data were processed

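RNA of 6 brains was hybridised to 1 Affymetrix Mouse Gene ST array each, per the labels' protocols. The deposited values are log2 values from Robust Multi-Array Average by the authors, per the series text. Affymetrix Expression Console is the tool listed, per the submitters' processing notes. Row medians over the arrays did not exceed 5e-07 in size, so rows had been centred, which no label describes. The build of the array annotation is not given in the sources used here. Groups and replicate numbers came from the sample titles. Of 28856 rows, 21789 named 1 gene and 1621 several, by the platform annotation, with symbols updated through RefSeq (GRCm38.p6). The 23410 rows naming a gene were fitted with limma 3.58.1 in R 4.3.3 (lmFit, eBayes, two-sided), with Benjamini-Hochberg adjustment over all of them and no replicate term. Errors are moderated SEs. Lists used 1 row per gene, that with most accessions.

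Members and lists were chosen with earlier results of these data known. Named genes were all members, Tdp2, in each list the 4 called genes of smallest p (2 of smallest p where fewer than 2 were called), and the 3 genes most correlated with each called member. In text, a few further called list genes and the neighbours were named after their values were seen. Alternatives were the replicate block, each array left out, other row sets, equal array medians, cyclic loess, array weights, a robust prior and a 1.5-fold limit. On 5 rounds of simulated data for this comparison, over 23410 rows, the fit recovered 87.4% of 1.5-fold and 97.6% of 2-fold changes, and 4.05% of calls were false. Simulated rows were independent, normal and of equal spread in all arrays, with 200 rows changed. These rates therefore need not hold for the real arrays. With 3 arrays per genotype, their number limits the precision. The p values set each difference against the spread between these embryos, moderated by that of all rows tested. Figures were drawn with matplotlib 3.10.9.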

Additional observations from a re-analysis of the deposited data

How the results depend on the processing

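No difference of the 9 exchange factor genes changed sign under any of 13 alternative fits, but many of these fits could not change one. The replicate block, the other row sets and the robust prior leave the differences themselves as they were. In the 6 called members the genotypes did not overlap, so leaving out 1 array could not reverse the sign either. With 1 array left out, the called rows of the whole table ranged from 145 to 2501 (1515 with all arrays), the called members from 2 to 6, called pathway genes from 3 to 20 (16 with all arrays) and called marker genes from 6 to 35 (27 with all arrays). The members' calls that were lost in those fits stand in the report. With the replicate block 2400 rows were called, and all 6 called members passed. Deviations of same-numbered brains had r = 0.21, 0.047 and 0.20 for replicates 1, 2 and 3, and those of different numbers ran from -0.22 to 0.057. Mutant replicate 2 correlated slightly better with wild-type replicate 3 (0.057) than with its own number. The titles give replicate numbers and no pairing, so the numbers were not taken as pairs. Whether same-numbered brains share an effect was not settled. Array weights called 5425 rows, 51.3% of them lower against 63.8% without weights, with 43 pathway and 43 marker genes, and added calls for Rasgrp3 and Rasgef1b. Those weights gave wild-type replicate 2 a weight of 3.65 and wild-type replicate 1 a weight of 0.44. At 1.5-fold 150 rows and 3 members were called. Under cyclic loess Rasgrf2 was at -0.55. Other row sets, equal array medians, cyclic loess and the robust prior left the 6 called members called. Outside the members, testing all rows, a larger family of tests, ended the calls of 9 list genes, namely Plce1, Rapgef2, Spred2, Grin2a, Fgfr3, Snap25, Syn1, Gja1 and Olig1, and equal array medians that of Plce1. Cyclic loess ended those of Syn1 and Olig1 and took Grin3a to -0.33, and the cause was not tested. It was run on centred values, in which a row's average is not its signal level. The cyclic loess values therefore cannot show how any gene depends on scaling by signal. Signal over background is unknown in centred values, which limits what can be said of rows that did not pass, such as Rasgrp4.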

Other observations

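The RasGRP genes Rasgrp1, Rasgrp3 and Rasgrp4 each lie next to a member of the Fam98 family, whose proteins are known from RNA-binding complexes. Rasgrp1 has Fam98b beside it, Rasgrp3 has Fam98a and Rasgrp4 has Fam98c, by gene order in RefSeq GRCm38.p6. The differences, mutant minus wild type, were -0.40 for Rasgrp1 and 0.30 for Fam98b, -0.12 for Rasgrp3 and 0.013 for Fam98a, and -0.020 for Rasgrp4 and -0.044 for Fam98c. Of these pairs, only Rasgrp1 and Fam98b passed limma's adjusted p, in opposite directions. The pairs were noticed after the values were seen.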
